A study of Mus musculus with 6 samples.

Results

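This account follows 35 genes of the cell cycle in mouse liver: the G1 cyclins and their kinase, the CDK inhibitors Cdkn1a and Cdkn1b, the replication licensing and fork genes, the enzymes that supply deoxynucleotides, the mitotic cyclins with Cdk1 and Foxm1, the spindle and checkpoint genes, and the proliferation markers Mki67 and Top2a. They were taken as a list of gene symbols. All 35 were among the 35540 genes of the expression table, and 32 of them were among the 14189 genes that reached a mean of 0.1 TPM and were tested. TPM is the abundance of a transcript corrected for its length and scaled to a fixed total of 1000000 per mouse. Cdc6, Foxm1 and Bub1 did not reach that mean, and their values are given without a test.

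RNA was sequenced from the livers of 6 mice, 3 labelled Surf4 fl/fl Alb-Cre+ and 3 labelled Surf4 fl/fl Alb-Cre-. Every mouse of both genotypes carried floxed Surf4 alleles on a C57BL/6J background, and the Alb-Cre- mice were littermate controls that lacked the Cre transgene. Alb-Cre expresses Cre recombinase from the albumin promoter, which is active in hepatocytes. The study proposes that the Surf4 transcript left unexcised in these livers likely comes from cells other than hepatocytes. Mice were fed chow and were fasted overnight before collection. In each genotype the mouse with replicate number 2 was female and those with numbers 1 and 3 were male. Their ages at collection were not given in the sources used here. SURF4 is a cargo receptor that carries secreted proteins out of the endoplasmic reticulum, and the livers were profiled to ask how transcripts differ when hepatocytes lose it. Whether loss of SURF4 goes with a different level of cell cycle transcripts was the question here.

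In the adult liver nearly all hepatocytes rest outside the cell cycle, in G0, and they can re-enter it after injury or partial hepatectomy. D-type cyclins respond to growth signals and act in G1. E-type cyclins with CDK2 then bring cells to S phase, where the MCM2-7 helicase, loaded with the help of CDC6 and CDT1, opens the DNA. Cyclin A2 and the B cyclins with CDK1 drive G2 and mitosis, and CDKN1A (p21) and CDKN1B (p27) hold the kinases back. In whole-liver RNA, fewer cells of a type and less RNA per cell cannot be told apart.

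The Surf4 transcript served as the check of the genotype labels. Surf4 stood at 59.0, 71.8 and 54.3 TPM in Alb-Cre+ replicates 1, 2 and 3, against 92.5, 94.5 and 92.5 TPM in the controls. The genotypes did not overlap, and every Alb-Cre+ liver lay below every control. The value covers the whole transcript and not the floxed exon alone. The difference was -0.60 ± 0.13 (SE) on the log2(TPM + 0.1) scale, with an unadjusted p = 0.00269 in limma, and it did not pass Benjamini-Hochberg adjustment over all genes tested (adjusted p = 1.00). TPM values keep no read numbers, so the depth of a single liver is unknown.

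The cell cycle genes were expressed at low levels in both genotypes. Their median of the 6-mouse means was 0.71 TPM, against 4.92 TPM over all genes tested. Of the 35 members, 21 had a mean under 1 TPM and 15 a mean under 0.5 TPM, while 4 had a mean over 10 TPM. Those 4 were the CDK inhibitors Cdkn1a (98.9 TPM) and Cdkn1b (10.2 TPM), the sliding clamp Pcna (24.9 TPM) and cyclin D1, Ccnd1 (10.8 TPM). Each of the 4 also has roles in cells that are not dividing. The lowest means were 0.062 TPM for Cdc6, 0.084 TPM for Foxm1 and 0.0976 TPM for Bub1, followed by 0.162 TPM for Mki67 and 0.17 TPM for Plk1. Among the other S phase and mitotic genes Rrm2 (6.32 TPM) and Cdk1 (1.73 TPM) were higher. The authors' mean normalized count, one value per gene over all mice, had a median of 226.5 over the members and ran from 18.0 for Cdc6 and 18.8 for Bub1 to 24960 for Cdkn1a.

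**Figure D1:**
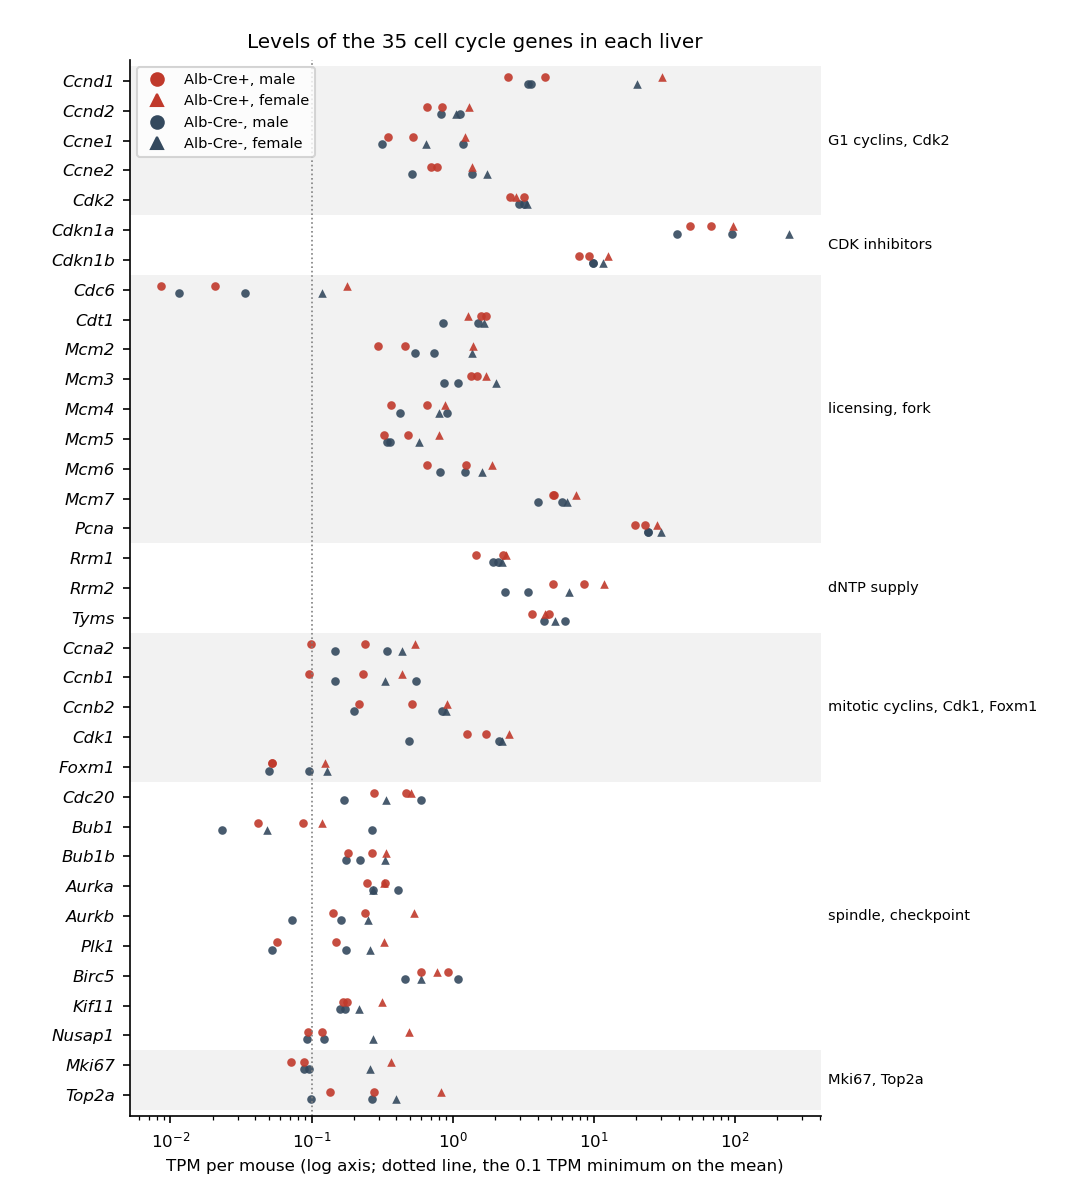
Each point is the TPM of one gene in one mouse on a log axis, with genes grouped by role, Alb-Cre+ in red, Alb-Cre- in dark blue, females as triangles and males as circles. The CDK inhibitors, Pcna and Ccnd1 lie furthest to the right, most mitotic genes lie under 1 TPM, and the triangles are the rightmost points for many genes in both colours.

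No cell cycle gene passed the test between genotypes. In limma, with genotype alone in the model, 0% of the 14189 genes had an adjusted p under 0.01, and the smallest adjusted p of any gene was 0.456. At an unadjusted p under 0.05, 114 genes were higher in Alb-Cre+ livers (0.803% of those tested) and 136 were lower (0.958%). Of the 32 members tested, 1 was in the first set, Rrm2, and 0 were in the second. The members were split evenly, 16 with a higher mean log2 level in Alb-Cre+ livers and 16 with a lower one, with a median difference of 0.02 (log2) and a range from -0.51 to 1.07. The median over all genes tested was 0.00.

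Genotype was also compared within replicate numbers, taking same-numbered mice as pairs. The labels do not state such a pairing, so the p-values of that fit rest on an assumption. In that fit 323 genes (2.28%) were higher and 343 (2.42%) were lower in Alb-Cre+ livers at an unadjusted p under 0.05, and 0 genes had an adjusted p under 0.01. Among the members the count was again 1 higher, Rrm2, and 0 lower. No member had genotypes that did not overlap, against 2.18% of all genes in the higher and 2.71% in the lower direction. Within the 3 pairs, 3 members were higher in every Alb-Cre+ mouse than in its same-numbered control (Rrm2, Aurkb and Bub1b) and 2 were lower in every one (Pcna and Tyms). These are 9.38% and 6.25% of the members, beside 11.5% and 12.4% of all genes tested.

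The width of the intervals sets what these data can show. The median distance from a member's difference to the end of its 95% interval was 1.03 (log2) with genotype alone and 0.66 with the replicate block. With the block, the interval lay between a halving and a doubling, that is within 1 log2 unit of 0, for 23 of the 32 members, and with genotype alone for 11. On the log2(TPM + 0.1) scale a fold change of a gene near 0.1 TPM is understated. The p-values measure the spread between these mice alone.

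**Figure D2:**
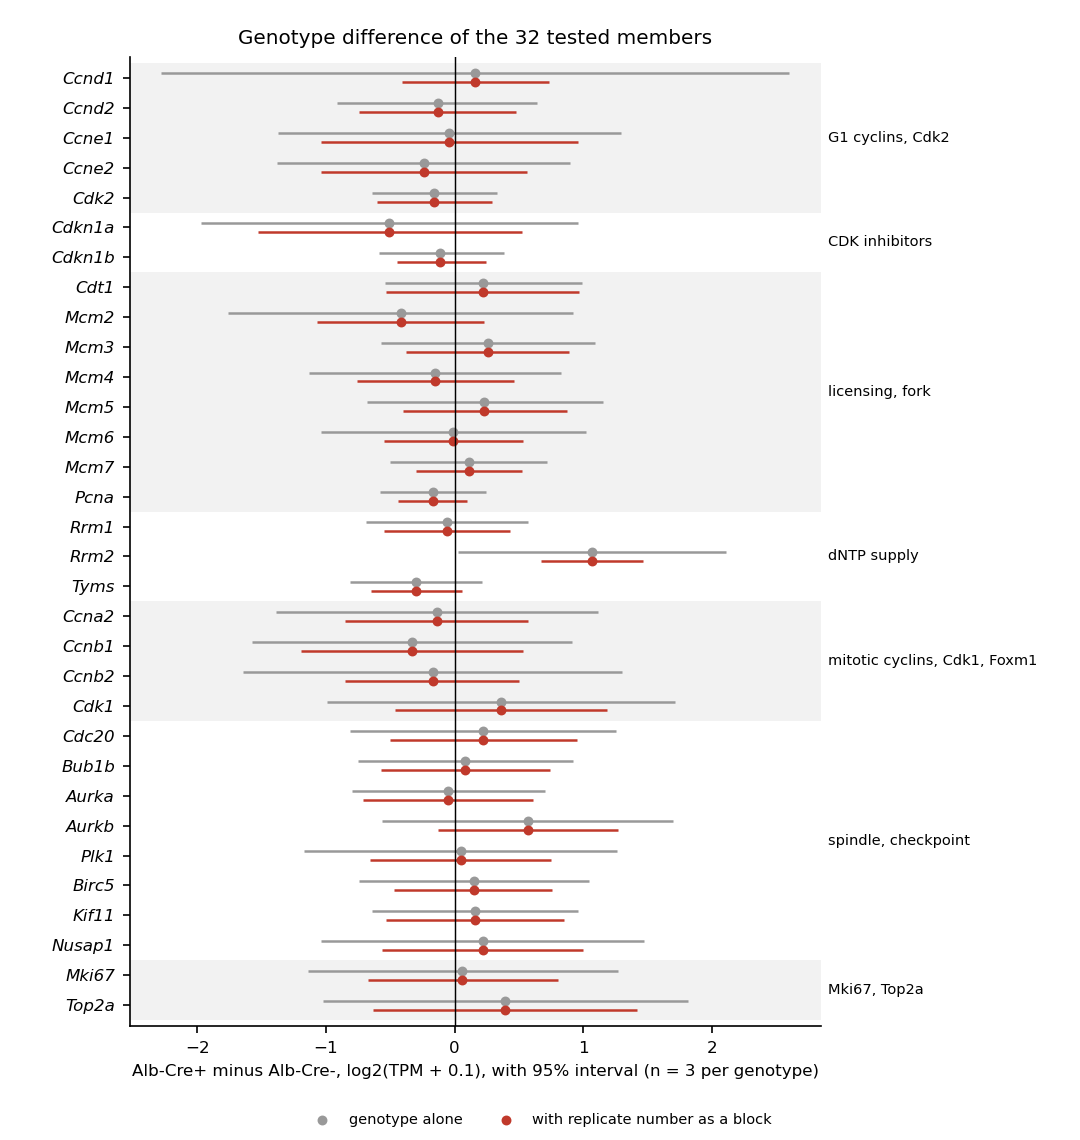
Points give the difference Alb-Cre+ minus Alb-Cre- of each of the 32 tested members in log2(TPM + 0.1), and bars give 95% intervals, grey for genotype alone and red with the replicate number as a block (n = 3 per genotype). The intervals of Rrm2 alone exclude 0, in both fits, and the block narrows most intervals.

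Rrm2 encodes the small subunit of ribonucleotide reductase, the enzyme that makes deoxynucleotides, and its protein is made mainly in S phase. Rrm2 stood at 2.35, 6.66 and 3.44 TPM in Alb-Cre- replicates 1, 2 and 3. In Alb-Cre+ replicates 1, 2 and 3 it stood at 5.17, 11.8 and 8.51 TPM. The Alb-Cre+ value was the higher one in each pair, while the lowest Alb-Cre+ liver, the male with number 1, lay under the control female, so the genotypes overlapped. The means were 8.49 ± 3.31 TPM in Alb-Cre+ and 4.15 ± 2.24 TPM in Alb-Cre- livers (SD, n = 3 each), a ratio of 2.05. The exact 2-sided permutation test of the TPM values gave p = 0.2, where 0.1 is the smallest value that 3 mice against 3 allow.

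On the log2 scale the Rrm2 difference was 1.07 ± 0.44 (SE) with genotype alone (unadjusted p = 0.0454, limma with Benjamini-Hochberg adjusted p = 1.00). Within pairs it was 1.11, 0.81 and 1.28 for numbers 1, 2 and 3, and the standard error with the block was 0.16 (unadjusted p = 0.000783, adjusted p = 0.4). Among the genes with a higher level in Alb-Cre+ livers its p ranked 102nd with genotype alone and 9th with the block. With single mice left out and genotype alone in the model, the difference ran from 0.74 to 1.47 and the unadjusted p stayed under 0.05 without Alb-Cre+ replicate 1 or without Alb-Cre- replicate 2. It did not stay under 0.05 without Alb-Cre+ replicate 2 (0.80), Alb-Cre+ replicate 3 (1.03), Alb-Cre- replicate 1 (0.74) or Alb-Cre- replicate 3 (1.00).

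Of the Rrm2 signal, 99.5% came from protein-coding transcripts, and the difference from those transcripts alone was also 1.07. Rrm2 lies on chromosome 12 of GRCm38. Of the 2789 distinct 31-base words of its transcripts, 12.8% also occur in transcripts of 21 other annotated genes, of which the pseudogene Gm48455 shares the most (4.45%). The neutrophil marker list moved in the same direction across the pairs. Its summed level (S100a8, S100a9, Ly6g, Retnlg and Mmp8) was 42.6, 302 and 54.3 TPM in Alb-Cre+ and 34.8, 147 and 24.0 TPM in Alb-Cre- replicates 1, 2 and 3, with 5 of 5 markers higher on average, 3 of 5 at an unadjusted p under 0.05 with the block and none at 0 in any mouse. The neutrophil precursor list (Mpo, Elane, Prtn3, Ctsg, Ngp, Camp and Ltf) summed to between 0.443 and 8.68 TPM in Alb-Cre+ and between 1.29 and 3.68 TPM in Alb-Cre- livers, with 4 of its 5 tested genes lower on average and Mpo, Ctsg, Camp and Ltf at 0 in at least one mouse. The part of neutrophils in the Rrm2 difference was not tested.

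Rrm1 and Tyms, the other genes of deoxynucleotide supply, did not follow Rrm2. Rrm1, the large subunit of ribonucleotide reductase, ranged from 1.47 to 2.37 TPM over the 6 mice, with a difference of -0.06 ± 0.20 (log2, SE with the block). Tyms, thymidylate synthase, was lower in each Alb-Cre+ mouse than in its control. It stood at 4.80, 4.49 and 3.66 TPM in Alb-Cre+ and 6.31, 5.33 and 4.43 TPM in Alb-Cre- replicates 1, 2 and 3. The genotypes overlapped, and the difference was -0.30 ± 0.14 with the block (unadjusted p = 0.0837, limma adjusted p = 0.999). Only 24.9% of the Tyms signal came from protein-coding transcripts, and from those alone the difference was -0.04.

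**Figure D3:**
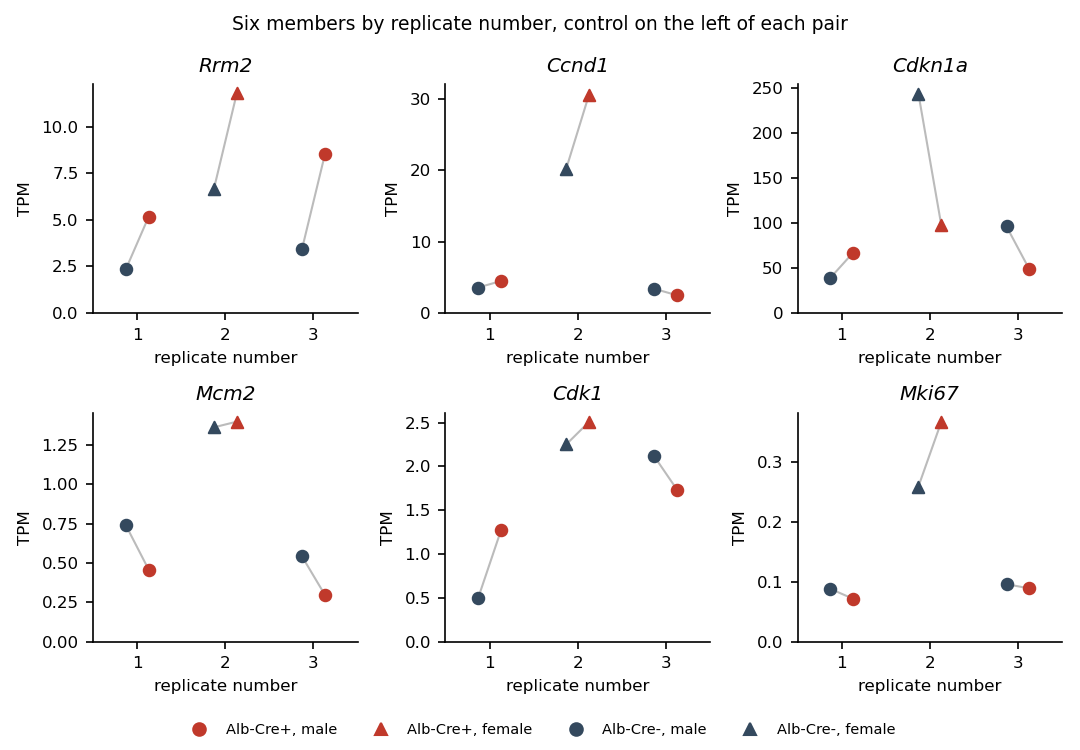
Each panel gives one gene in TPM (axis from 0) by replicate number, with the control on the left and the Alb-Cre+ mouse on the right of each joined pair, and females as triangles. Rrm2 is higher in the Alb-Cre+ mouse of all 3 pairs, the other panels differ in direction between pairs, and the female pair stands highest for Ccnd1, Mcm2 and Mki67.

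Among the G1 genes, Ccnd1 had a wide spread within each genotype and a small difference between them. Ccnd1, the D cyclin that links growth signals to G1, stood at 3.58, 20.2 and 3.41 TPM in Alb-Cre- and 4.50, 30.6 and 2.49 TPM in Alb-Cre+ replicates 1, 2 and 3. Both females lay far above all 4 males, and the male values of the genotypes overlapped. The genotype difference was 0.16 ± 0.23 (log2, SE with the block) with a 95% interval from -0.41 to 0.73. Ccnd2, Ccne1, Ccne2 and Cdk2 each had a lower mean log2 level in Alb-Cre+ livers, by between 0.04 and 0.24 (log2) and with unadjusted p-values in the block fit from 0.414 for Cdk2 to 0.923 for Ccne1. The tightest of them was Cdk2, the kinase partner of the E cyclins, at 2.55 to 3.19 TPM in Alb-Cre+ and 2.95 to 3.39 TPM in Alb-Cre- livers.

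Cdkn1a was the most abundant of the 35 transcripts by its mean, and Cdkn1b ranked after Pcna and Ccnd1. Cdkn1a, the p21 gene, is induced by p53 and by stress and is also known to respond to fasting. It stood at 39.2, 244 and 96.4 TPM in Alb-Cre- and 67.4, 97.7 and 48.6 TPM in Alb-Cre+ replicates 1, 2 and 3. The control female held the highest value and the control male with number 1 the lowest, so the Alb-Cre+ values all lay inside the control range. Cdkn1a differed by 0.78, -1.32 and -0.99 (log2) within pairs 1, 2 and 3, with a mean of -0.51 ± 0.41 (SE with the block, unadjusted p = 0.263). Without Alb-Cre- replicate 1 the difference was -1.16 and its unadjusted p fell under 0.05, and without Alb-Cre- replicate 2 it was 0.15. Cdkn1b, the p27 gene, which is high in resting cells, was tight, at 7.87 to 12.6 TPM in Alb-Cre+ and 9.94 to 11.7 TPM in Alb-Cre- livers.

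The genes of origin licensing and the replication fork showed no common direction between genotypes. Of the 8 tested, 4 were higher and 4 lower on average, with a median of 0.05 (log2), and 0 had an unadjusted p under 0.05 in either fit. Mcm3, Cdt1, Mcm5 and Mcm7 had the higher averages (0.26, 0.22, 0.23 and 0.11 log2). From protein-coding transcripts alone the Mcm3 difference was -0.03. Mcm2, Mcm4 and Pcna had the lower ones (-0.42, -0.15 and -0.17 log2), and Mcm6 lay at -0.01. The proteins MCM2 to MCM7 work as one ring, and the averages of their transcripts took both directions. Pcna, the clamp that holds DNA polymerases on the template, stood at 23.1, 28.0 and 19.6 TPM in Alb-Cre+ and 24.5, 30.1 and 24.4 TPM in Alb-Cre- replicates 1, 2 and 3. It was lower in all 3 pairs by at most 0.32 (log2), the genotypes overlapped, and with the block the 95% interval ran from -0.44 to 0.10. After median-of-ratios scaling, which divides each liver by its typical ratio to the 6-mouse mean, Pcna became the 1 member whose genotypes did not overlap, and it lay lower in Alb-Cre+. In the same scaling 2.91% of all genes did not overlap in the higher and 2.9% in the lower direction.

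Cdc6, which loads the helicase, was under the minimum level. Cdc6 stood at 0.0207, 0.18 and 0.00857 TPM in Alb-Cre+ and 0.0338, 0.118 and 0.0115 TPM in Alb-Cre- replicates 1, 2 and 3. The female of each genotype held its highest value. Of the Cdc6 signal, 32.4% came from protein-coding transcripts.

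The mitotic cyclins had lower averages in Alb-Cre+ livers without passing a test, and the direction turned when a single mouse was left out. Ccna2, which acts in S phase and G2, differed by -0.14 (log2), Ccnb1 by -0.33 and Ccnb2 by -0.17, with unadjusted p-values in the block fit from 0.373 to 0.632. Without Alb-Cre+ replicate 1 these differences were 0.27, 0.04 and 0.27. Cdk1, their kinase, had a higher average. Cdk1 stood at 1.27, 2.51 and 1.73 TPM in Alb-Cre+ and 0.495, 2.25 and 2.12 TPM in Alb-Cre- replicates 1, 2 and 3. The control male with number 1 held the lowest value by a wide margin, and the remaining 5 values overlapped. The Cdk1 difference was 0.36 ± 0.33 (log2, SE with the block), and it was -0.29 without Alb-Cre- replicate 1. Foxm1, the transcription factor of the G2 and M genes, was under the minimum, at 0.0521 to 0.125 TPM in Alb-Cre+ and 0.0502 to 0.128 TPM in Alb-Cre- livers.

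The 9 spindle and checkpoint genes were at or under 1.10 TPM in every mouse. Of the 8 tested, 7 had a higher and 1 a lower average in Alb-Cre+ livers, with a median of 0.15 (log2) and a range from -0.05 for Aurka to 0.57 for Aurkb. Aurkb, the kinase that corrects chromosome attachment, stood at 0.24, 0.535 and 0.143 TPM in Alb-Cre+ and 0.162, 0.252 and 0.0732 TPM in Alb-Cre- replicates 1, 2 and 3. It was higher in each Alb-Cre+ mouse than in its control, and the genotypes overlapped. The difference was 0.57 ± 0.28 (log2, SE with the block, unadjusted p = 0.0903, limma adjusted p = 0.999). In Alb-Cre+ replicate 1, 0.171 TPM of Aurkb came from a retained-intron transcript, and from protein-coding transcripts alone the difference was 0.31. Bub1b, which delays anaphase, was higher in all 3 pairs by 0.02, 0.01 and 0.21 (log2). In Alb-Cre+ replicate 3, 0.115 TPM of Bub1b came from a retained-intron transcript, its coding transcript was at 0.155 TPM against 0.22 TPM in the control, and from protein-coding transcripts alone the difference was -0.05.

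The other tested genes of this group had small average differences with wide intervals. Cdc20, the activator of the anaphase-promoting complex, differed by 0.22 (log2), Birc5 (survivin) by 0.15, the spindle motor gene Kif11 by 0.16, Nusap1 by 0.22 and Plk1 by 0.05. None had an unadjusted p under 0.05 in either fit. Bub1, under the minimum on average, was at 0.267 TPM in the control male with number 3 and at 0.0232 to 0.118 TPM in the other 5 mice. Of that highest value 0.241 TPM came from a processed transcript without a coding sequence and 0.0266 TPM from the coding one, which ranged from 0.0164 to 0.118 TPM over the other mice. The same male held the highest value of Birc5 (1.10 TPM), Cdc20 (0.596 TPM), Aurka (0.411 TPM) and Ccnb1 (0.554 TPM).

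Mki67 and Top2a did not pass a test between the genotypes. Mki67, the Ki-67 gene, which is expressed in cycling cells and shut off in G0, stood at 0.0715, 0.368 and 0.0889 TPM in Alb-Cre+ and 0.0883, 0.259 and 0.0961 TPM in Alb-Cre- replicates 1, 2 and 3. The values interleaved, and both females lay above all males. The difference was 0.06 ± 0.29 (log2, SE with the block, unadjusted p = 0.835), with a 95% interval from -0.67 to 0.80. Top2a, the topoisomerase that untangles DNA before anaphase, stood at 0.278, 0.834 and 0.135 TPM in Alb-Cre+ and 0.0995, 0.395 and 0.27 TPM in Alb-Cre- replicates 1, 2 and 3. Its pairs differed by 0.92, 0.92 and -0.65 (log2), and the mean was 0.39 ± 0.41 (SE with the block), with a 95% interval from -0.63 to 1.42 that leaves the direction unresolved. From protein-coding transcripts alone, which held 64.0% of its signal, the Top2a difference was 0.07.

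The wider cell cycle lists held no called gene either. They held 183 further genes in 6 groups, of which 181 were in the table and 154 were tested. With genotype alone 0 were higher and 1 was lower at an unadjusted p under 0.05, and with the block 2 were higher and 3 were lower. These shares, 1.30% and 1.95%, lie under those of all genes in the same fit.

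All 5 genes of the block fit are given here. Chaf1b, a subunit of the chromatin assembly factor that follows the replication fork, stood at 0.76, 1.24 and 0.802 TPM in Alb-Cre+ and 1.24, 1.78 and 1.97 TPM in Alb-Cre- replicates 1, 2 and 3. The Alb-Cre+ female lay just above the control male with number 1, which is the one overlap, and the difference was -0.77 ± 0.24 (log2, SE with the block, unadjusted p = 0.0195, limma adjusted p = 0.914). Spc25, a kinetochore subunit, stood at 2.03, 2.13 and 2.86 TPM in Alb-Cre+ and 2.77, 3.97 and 4.01 TPM in Alb-Cre- replicates 1, 2 and 3. The Spc25 difference was -0.59 ± 0.18 (log2, SE with the block), and its standard error with genotype alone was 0.26. Its genotypes overlapped by a single pair of values.

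Btg2, an antiproliferative p53 target that is also an immediate early gene, had the smallest p of these lists with the block. Btg2 stood at 104, 19.1 and 8.47 TPM in Alb-Cre+ and 172, 42.2 and 16.7 TPM in Alb-Cre- replicates 1, 2 and 3. Both mice with number 1 lay far above the others, and within each pair the Alb-Cre+ mouse was lower, by -0.73, -1.14 and -0.97 (log2). The difference was -0.95 ± 0.12 with the block (unadjusted p = 0.000341, limma adjusted p = 0.302) and ± 1.09 without it. In the growth factor list, Myc, a transcription factor of growing cells, and Igf2bp3, an RNA-binding protein of fetal liver, were higher in each Alb-Cre+ mouse than in its control, by 0.50 ± 0.18 and 0.51 ± 0.19 (log2, SE with the block, unadjusted p = 0.0353 and 0.0433). Their genotypes overlapped widely, Myc at 3.05 to 9.85 TPM against 1.93 to 6.02 TPM. From protein-coding transcripts alone the Igf2bp3 difference was 0.26 (log2), and that of Myc stayed at 0.50.

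The mice numbered 2 had higher levels of many of the 35 members than the rest, in both genotypes. Of the 35 members, 21 had their highest value in the Alb-Cre+ female and 6 in the Alb-Cre- female. Among genes tested, the highest value lay in a female for 78.1% of the members and for 66.2% of all genes. For the 154 tested genes of the wider lists the share was 59.1%. Relative to each gene's own 6-mouse mean log2 level, 32 members lay above it in the Alb-Cre+ female and 31 in the Alb-Cre- female, and 8 to 14 did in each male. The median deviation was 0.42 and 0.27 (log2) in the females and between -0.31 and -0.09 in the males. After the median-of-ratios scaling it was 0.19 in each female and ran from -0.27, in the control male with number 1, to 0.00 in the males. On the TPM scale both females lay above all 4 males for 21 of the 35 members, and for 0 did both lie below. In each genotype the female and the number 2 were the same mouse, so sex and replicate number 2 cannot be told apart.

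This pattern has to be read against a shift of the whole table. On the TPM scale 25.6% of all genes tested were higher in the females at an unadjusted p under 0.05 and 3.11% were lower, and the median of all genes was 0.26 (log2) higher in the females. Median-of-ratios scaling brought that median to 0.01 and the shares to 13.8% higher and 13.3% lower. Among the 32 members tested, 14 (43.8%) were higher in the females at that level on the TPM scale and 0 were lower. After the scaling 5 (15.6%) were higher, a share near that of all genes. The members' median difference was 0.65 (log2) on the TPM scale and 0.41 after scaling, so it lay 0.39 and 0.40 above the median of all genes.

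The count of members without overlap between the sexes was above that of all genes on both scales. It was 19 of 32 (59.4%) higher in the females on the TPM scale, against 36.6% of all genes, and 0 of 32 lower, against 5% of all genes. After scaling it was 11 of 32 (34.4%) against 19.4%, and 0 lower against 19.7%. Those 11 were Ccnd1, Mcm2, Mcm5, Mcm6, Mcm7, Ccna2, Plk1, Kif11, Nusap1, Mki67 and Top2a. Pooled, the 154 tested genes of the wider lists did not share this excess. Of them 36.4% were higher without overlap on the TPM scale and 20.1% after scaling, near the shares of all genes. The G2 and M phase list among them came closer to the members. Its 47 tested genes had a median female minus male difference of 0.53 (log2) on the TPM scale and 0.35 after scaling. On the TPM scale 19 of the 47 were higher in the females without overlap and 2 were lower. In the other wider lists the medians ran from 0.21 to 0.35 and from -0.05 to 0.08. The members share libraries and many share phases of one cycle, so they are not independent of each other, and the difference in shares was not tested.

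**Figure D4:**
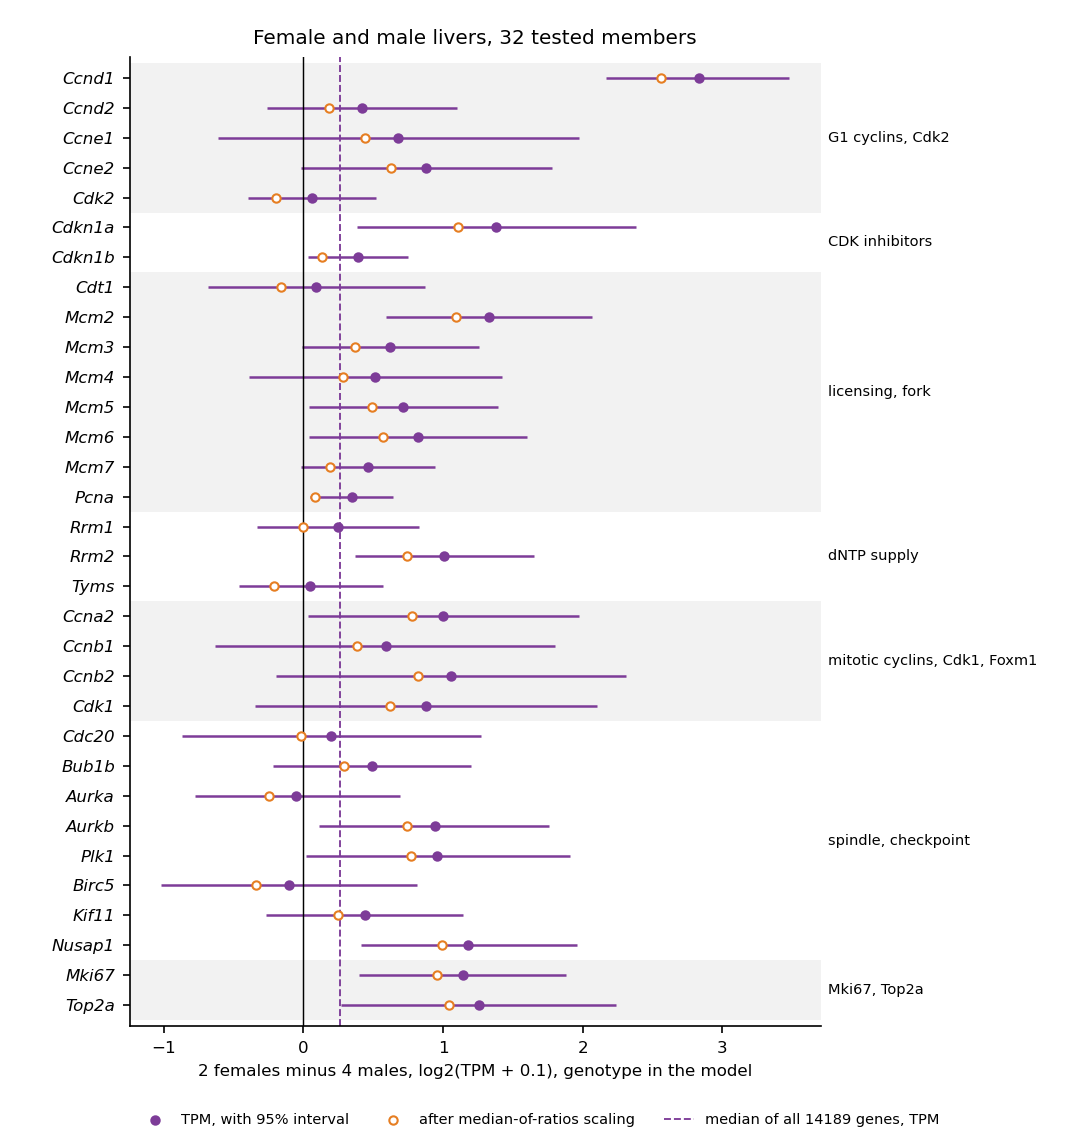
Filled points give the female minus male difference of each tested member in log2(TPM + 0.1) with genotype in the model, with 95% intervals (2 females, 4 males), and open points give the same difference after median-of-ratios scaling. The dashed line marks the median of all genes on the TPM scale, 0.26, and most members lie to its right, Ccnd1 by the widest margin.

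Ccnd1 was the only member past the adjusted threshold between the sexes. It was 2.83 ± 0.27 (log2, SE) higher in the females (limma adjusted p = 0.00688), where 0.514% of all genes had an adjusted p under 0.01, and 2.56 after scaling (adjusted p = 0.00724). The female level was 8.78 times the male mean in Alb-Cre+ and 5.78 times in Alb-Cre- livers. With single mice left out it stayed between 2.50 and 3.16 (log2). Of the Ccnd1 signal 97.1% came from its 1 protein-coding transcript, while 22.3% of its 31-base words also occur in LTO1, a gene that overlaps its end on the opposite strand of chromosome 7.

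Mcm2, Nusap1, Mki67 and Top2a were the other members with an unadjusted p under 0.05 on both scales. Without the Alb-Cre+ female none of these 4 was under 0.05, and the members that were are Ccnd1, Cdkn1a, Mcm3 and Rrm2. On the TPM scale their female minus male differences were 1.33 ± 0.31, 1.18 ± 0.32, 1.14 ± 0.31 and 1.26 ± 0.41 (log2, SE), with limma adjusted p-values of 0.0527, 0.0755, 0.0743 and 0.11. After scaling the differences were 1.09, 0.99, 0.96 and 1.04. Nusap1, a microtubule-binding protein of the spindle, stood at 0.492 and 0.272 TPM in the Alb-Cre+ and Alb-Cre- females and at 0.0929 to 0.123 TPM in the males. Mcm2 stood at 1.40 and 1.36 TPM in the females and at 0.297 to 0.74 TPM in the males. All 4 genes were higher in the female than in the male mean within each genotype, by between 2.13 and 4.62 times.

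Further members had an unadjusted p under 0.05 between the sexes on the TPM scale and not after scaling, though their differences kept their direction. Cdkn1a was 1.38 ± 0.42 (log2, SE) higher in the females (unadjusted p = 0.0144, limma) and 1.11 after scaling (unadjusted p = 0.0526). Rrm2 was 1.01 ± 0.27 higher (unadjusted p = 0.00775, limma) and 0.74 after scaling (unadjusted p = 0.059). Plk1 (0.96 log2 on the TPM scale and 0.77 after scaling), Aurkb (0.94 and 0.74), Ccna2 (1.00 and 0.78), Mcm5 (0.71 and 0.49), Mcm6 (0.82 and 0.57), Pcna (0.35 and 0.08) and Cdkn1b (0.39 and 0.13) were the rest of this set. For Plk1, Ccna2, Mcm5 and Mcm6 the sexes did not overlap after scaling. Birc5 and Aurka were the 2 tested members with a lower average in the females (-0.10 and -0.05 log2), and after scaling Cdk2, Cdt1, Tyms and Cdc20 also lay under 0, with Rrm1 at 0.00. The count also rests on the females themselves: it was 4 without the Alb-Cre+ female and 6 without the Alb-Cre- female, and 10 to 14 when a male was left out.

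Markers of several nonhepatocyte cell types moved with the same mice. All 10 Kupffer cell and macrophage markers were higher in both females than in all males, also with an unadjusted p under 0.05 each, and their summed level was 766 to 818 TPM in the females and 225 to 331 TPM in the males. Clec4f, the defining Kupffer marker, stood at 76.7 to 77.5 TPM in the females and 28.8 to 49.3 TPM in the males. The neutrophil list was higher in the females for 5 of 5 markers, with sums of 147 to 302 TPM against 24.0 to 54.3 TPM. Endothelial sums were 230 to 253 TPM in the females against 104 to 180 TPM in the males, stellate sums 218 to 226 TPM against 88.1 to 166 TPM, and T and NK cell sums 4.59 to 6.32 TPM against 1.94 to 3.96 TPM. Cholangiocyte sums, at 36.26 to 39.24 TPM in the females and 15.03 to 59.27 TPM in the males, overlapped between the sexes. Plasma cell sums, at 125.8 to 127.5 TPM and 110.6 to 134.1 TPM, also overlapped, but most single plasma cell markers did not. Of those 5 markers, 4 were higher in both females than in all males. Their median female minus male difference was 1.23 (log2) on the TPM scale and 1.02 after scaling.

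Hepatocyte markers did not follow that order. The 11 hepatocyte markers summed to 81080 to 93660 TPM in the females and 64580 to 90800 TPM in the males, with Alb itself at 38060 to 55650 TPM over the 6 livers. The erythroid list ran the other way, at 103 to 131 TPM in the females and 172 to 409 TPM in the males. The part of these cell types in the difference between the sexes was not tested.

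**Figure D5:**
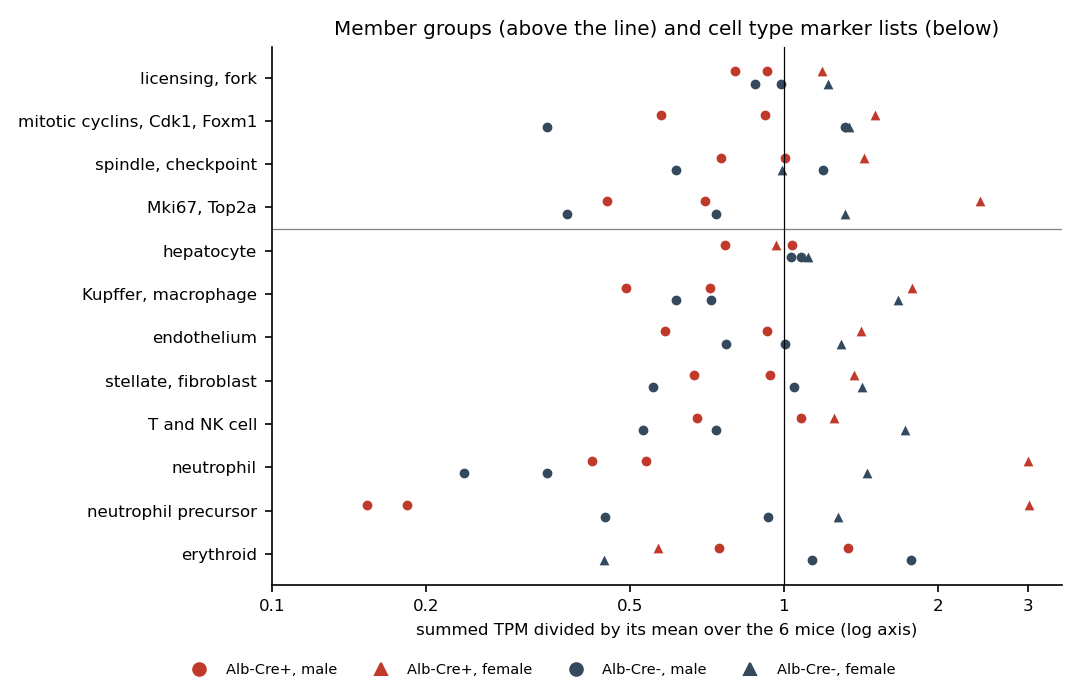
Each point is the summed TPM of a gene list in one mouse, divided by the mean of that sum over the 6 mice (log axis), with 4 groups of cell cycle genes above the line and 8 marker lists below it. The triangles of the 2 females lie to the right for the Mki67 and Top2a pair and for the Kupffer, endothelial, stellate and neutrophil lists, and to the left for the erythroid list.

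The genotype difference was also compared between the sexes. An interaction of genotype and sex had an unadjusted p under 0.05 for 0 members, and for 862 of the 14189 genes, of which 0 had an adjusted p under 0.05 in limma. In 11 members the female pair differed in the opposite direction from both male pairs. The share of all genes with this pattern is not given here, so the count does not set the members apart. Mcm2 was one of them, with 0.04 (log2) in the females against -0.59 and -0.69 in the males (limma interaction, unadjusted p = 0.277). Mcm3 was another, with -0.23 against 0.29 and 0.72 (limma interaction, unadjusted p = 0.144). In Alb-Cre+ replicate 3, 0.667 TPM of Mcm3 came from a retained-intron transcript. Its coding transcript there was at 0.827 TPM against 0.870 TPM in the control, so by that transcript this male pair was also lower. With 1 female per genotype these directions rest on a single pair.

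Promoter sequences are shown for 4 members, Rrm2 because it differed most between genotypes, and Mcm2, Mki67 and Top2a as examples of the members that were higher in both females on both scales. Nusap1, another of these, has a window that holds none of the letters searched, and it is not shown. Each is the 250 bases before the RefSeq start (GRCm38.p6), 5′ to 3′ on the strand of the gene. Capitals mark matches, on either strand, to the CCAAT box (CCAAT), to the CHR element of G2 and M genes (TTTGAA or TTCGAA), or to an E2F site (TTTCCCGC, TTTGGCGC, TTTCGCGC or TTTGCCGC). Windows were found by symbol for 28 of the 35 members.
Rrm2, chr12:24708004-24708253, plus strand: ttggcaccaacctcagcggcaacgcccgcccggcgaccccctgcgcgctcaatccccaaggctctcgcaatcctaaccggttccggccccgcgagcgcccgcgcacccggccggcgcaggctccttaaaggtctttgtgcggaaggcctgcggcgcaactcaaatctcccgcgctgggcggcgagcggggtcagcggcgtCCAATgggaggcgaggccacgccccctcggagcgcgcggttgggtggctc
Mcm2, chr6:88898781-88899030, minus strand: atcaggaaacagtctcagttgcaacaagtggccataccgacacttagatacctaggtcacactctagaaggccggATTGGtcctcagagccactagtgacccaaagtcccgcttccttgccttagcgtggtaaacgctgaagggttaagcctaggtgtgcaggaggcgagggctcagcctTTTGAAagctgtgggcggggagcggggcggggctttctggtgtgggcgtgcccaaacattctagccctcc
Mki67, chr7:135716380-135716629, minus strand: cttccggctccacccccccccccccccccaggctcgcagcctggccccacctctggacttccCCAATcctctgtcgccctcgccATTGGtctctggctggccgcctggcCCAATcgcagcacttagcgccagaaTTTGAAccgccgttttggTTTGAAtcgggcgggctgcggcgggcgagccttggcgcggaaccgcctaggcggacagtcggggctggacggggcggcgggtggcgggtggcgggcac
Top2a, chr11:99024190-99024439, minus strand: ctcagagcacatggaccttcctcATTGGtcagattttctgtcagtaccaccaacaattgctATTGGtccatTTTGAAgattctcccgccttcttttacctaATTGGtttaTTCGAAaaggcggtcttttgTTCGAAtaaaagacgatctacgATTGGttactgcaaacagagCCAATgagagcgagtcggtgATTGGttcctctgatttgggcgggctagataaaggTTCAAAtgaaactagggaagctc
In these windows Rrm2 holds 1 CCAAT box, Mcm2 holds 1 CCAAT box and 1 CHR match, Mki67 holds 3 CCAAT boxes and 2 CHR matches, and Top2a holds 6 CCAAT boxes and 4 CHR matches. The Rrm2 box begins 50 bases before the start. None of the 4 holds one of the E2F letters searched.

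Over the 28 members with a window, 21 (75%) held a CCAAT box, against 34.5% of all 27025 windows. A CHR match was in 9 (32.1%) against 17.4%, and all 9 of these also held a CCAAT box, a pairing found in 6.21% of all windows. An E2F match was in 6 (21.4%) against 1.91%, 4 of them licensing and fork genes (Cdc6, Mcm5, Mcm6 and Mcm7), with Cdk2 and Cdk1 the others. Cdkn1a, Ccne1, Cdt1, Tyms, Birc5 and Nusap1 held none of the 3. These matches describe the letters of the windows, and no binding was measured.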

How the data were processed

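Liver RNA of 6 mice was sequenced by the authors. Per the labels and the study's methods, reads were aligned to GRCm38 with STAR and quantified with RSEM, while the deposited table is named for Salmon. The deposited values are TPM per transcript, normalized to transcript length and to 1000000 per mouse. They were summed per gene symbol; 163 transcripts without a symbol, at most 0.0887% of the TPM of a mouse, were left out. The authors also deposited a table of a DESeq comparison. From it one signal deposited by the authors was used, their mean normalized count per gene over all mice. Its fold changes and p-values were not used.

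The 14189 genes averaging 0.1 TPM or more were fitted with limma 3.58.1 (R 4.3.3) on log2(TPM + 0.1), genotype alone, with a trended prior and Benjamini-Hochberg adjustment over all of them. A call needed an adjusted p under 0.01, and counts at an unadjusted p under 0.05 are given as descriptions. Errors are standard errors of the fit named beside them, or SD where stated. A count model was not run because the table holds no read numbers, and depth per mouse is unknown. The code was tested on simulated data.

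Deviations of same-numbered mice from their genotype means correlated at 0.367, 0.588 and 0.37 over genes. Different-numbered males correlated at 0.0914 and 0.171, and a female with a male of another number at -0.444 to -0.351. Deviations within a genotype sum to 0, so the positive value between the females forces negative ones elsewhere. The negative values therefore say nothing about pairing. The numbers were taken as pairs from these same data, though the labels state no pairing. Number 2 was female in both genotypes, so the check cannot separate pairing from shared sex. Whether same-numbered mice were littermates is not given in the sources used here. Blocked values stand beside the unblocked ones. The sex comparison (2 females, 4 males) had genotype in the model. Median-of-ratios factors ran from 0.855 to 1.20.

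The members and all lists were chosen with earlier results of these data known. All 35 members are described; of each wider list, up to 2 genes per direction with the smallest p under 0.05 in the block fit are named, and cell type lists are given by sums and first markers. Transcript classes, overlaps and 31-base words are from GENCODE M21. Alternatives were the block, a pseudocount of 1 TPM, no filter, a minimum of 1 TPM, median-of-ratios scaling (also with the block), no trend, sex as a covariate, each mouse left out, an adjusted p of 0.05 and, added after the data were seen, protein-coding transcripts alone, also with the block.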

Additional observations from a re-analysis of the deposited data

How the results depend on the processing

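No gene was called between genotypes under any alternative except 1, Gm10240, a gene named after its value was seen, when Alb-Cre+ replicate 1 was left out (range 0 to 1 over single mice left out). The count of members at an unadjusted p under 0.05 was 1 (Rrm2), and 0 with no filter and with no trend, where the prior on the spread differs; it ran from 0 to 1 over single mice left out. No member had genotypes without overlap, 1 had after median-of-ratios scaling, and 1 to 3 had with a single mouse left out, where fewer values have to separate. The share of all genes with a mouse left out is not given here, so that count does not set the members apart. The wider lists gave 1 gene, 0 with a minimum of 1 TPM, where fewer genes are tested, 3 with no trend, 3 with sex as a covariate, 5 with the replicate block, 5 with the replicate block with median-of-ratios scaling, and 6 with protein-coding transcripts alone and the replicate block. It ran from 0 to 4 over single mice left out. With the block, 2.28% of all genes were higher and 2.42% were lower. Shares of all genes in the other alternatives are not given here, so those counts do not set the wider lists apart. Counts of members between the sexes were 14 of 32, all higher in the females, where 25.6% of all genes were higher. With median-of-ratios scaling the count was 5 of 32, where 13.8% of all genes were higher. With a minimum of 1 TPM it was 5 of the 14 members tested, and the share of all genes there is not given here. The count ran from 4 to 14 over single mice left out. The block changed no adjusted call. The members' median difference of 0.02 stayed between -0.29 (without the Alb-Cre+ female) and 0.25 (without Alb-Cre+ replicate 1), within the spread between mice, and 25 of the 32 tested members changed sign when some single mouse was left out. From protein-coding transcripts alone the Tyms difference was -0.04 in place of -0.30, and without Alb-Cre+ replicate 2 that of Ccnd1 was -0.89 in place of 0.16. Causes were not tested. Depth per mouse is unknown, so the share of counting error in the values under 1 TPM cannot be given.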

Other observations

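One transcript of Tyms separated the genotypes by presence. Tyms-202, annotated as a retained intron, stood at 1.50, 1.81 and 1.04 TPM in Alb-Cre- replicates 1, 2 and 3 and was listed at 0 in all 3 Alb-Cre+ livers. Among the 24459 transcripts averaging 0.5 TPM or more, 2 were listed at 0 in every Alb-Cre+ mouse with at least 1 TPM in every control, Tyms-202 and a transcript of Gtdc1, and 2 showed the reverse, a transcript of Raly and one named for Myl12b. The main protein-coding transcript of Tyms was at 0.91 to 1.23 TPM in Alb-Cre+ and 0.921 to 1.11 TPM in Alb-Cre- livers, and one annotated for nonsense-mediated decay was at 2.72 to 2.79 TPM against 1.93 to 3.29 TPM. These transcripts were chosen after their values were seen. Division of reads among overlapping transcripts of one gene is an estimate, and an exact 0 can be a failed one, so this was not tested further.

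Mcm10, a replication factor of the wider S phase list, was chosen after its values were seen because it made up much of that list's sum. Mcm10 stood at 35.7, 5.56 and 31.1 TPM in Alb-Cre+ and 41.0, 16.5 and 37.5 TPM in Alb-Cre- replicates 1, 2 and 3. Most of it came from a transcript annotated as a retained intron, at 4.62 to 35.9 TPM, and the main protein-coding transcript was at 0.176 to 0.74 TPM. Both females lay under all 4 males in the sum and in both of these transcripts.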
